A study of Mus musculus with 22 samples.

Results

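The SR splicing factors examined here are 10 genes, *Srsf1*, *Srsf2*, *Srsf3*, *Srsf4*, *Srsf5*, *Srsf6*, *Srsf7*, *Srsf10*, *Srsf11* and *Tra2b*. A footprint, the unit of the data, is a stretch of genome to which RNA recovered with hnRNP A1 was assigned. Every footprint that overlapped the annotated span of 1 of the 10 genes by at least 1 nt was taken. This gave 117 footprints of the 136207 in the 10 lists, and 9 of the 10 genes were among the 6731 genes covered in at least 3 mice, of 55450 annotated genes.

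CLIPseq links proteins to RNA in tissue with UV light, recovers one protein with an antibody, and sequences the RNA that comes with it. All mice were female wild-type C57Bl/6, and spinal cord was the only tissue. The groups compared, with 1 hnRNP A1 immunoprecipitation per mouse, were 3 naive mice, 3 mice with mild experimental autoimmune encephalomyelitis (EAE, clinical score 1.0 to 1.5) and 4 mice with severe EAE (2.5 to 3.0). The 7 EAE mice had been immunized with a peptide of myelin oligodendrocyte glycoprotein in adjuvant, with pertussis toxin, and were taken 15 days after clinical onset. The sample labels give 12 weeks as the age at immunization and the description of the series gives 8 weeks. The labels name no mock immunization of the naive mice, so the adjuvant and toxin cannot be told apart from the disease. Mice keep here the numbers of their sample labels, naive 1, 2 and 3, mild EAE 3, 4 and 7, and severe EAE 1, 2, 5 and 6.

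SR proteins bind exons through RNA recognition motifs, and their serine and arginine rich domain helps the splicing machinery to choose those exons. hnRNP A1 often acts the other way, binding UAG-containing RNA and favouring exon skipping. Many SR genes hold a poison exon, a conserved exon that brings a premature stop codon, so that its inclusion sends the transcript to nonsense-mediated decay and limits how much protein is made.

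The lists differed in length. The naive lists held 17119 to 17494 footprints and the mild EAE lists 9751 to 24433, whereas the severe EAE lists held 2670, 209, 31870 and 673 for mice 1, 2, 5 and 6. Whether values of 0 in severe EAE mice 1, 2 and 6 come from the short lists was not tested, and values without mice 1, 2 and 6 are given where they alter a result. A list shows only sites that were kept after those found in matched input or control antibody samples had been taken away, so 0 means that no footprint was kept there. No read count stands behind a footprint in the lists, and the depth of each one is unknown. Of 5 oligodendrocyte and 5 neuron markers, 4 to 5 of each were listed in every naive and mild EAE mouse, and 2 to 3 of 4 astrocyte markers were. In severe EAE mouse 2, 1 oligodendrocyte marker and no neuron or astrocyte marker was listed. Leukocyte markers were listed in no naive mouse (0 of 6, 0 nt), in every mild EAE mouse (5, 3 and 3 of 6, 1841, 607 and 1289 nt) and in severe EAE as 1, 0, 4 and 1 of 6 (156, 0, 2131 and 80 nt for mice 1, 2, 5 and 6). *Cd3e*, the defining T cell marker of that list, was at 0 in every mouse.

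The sequences on which the results turn are shown first, on the strand of each gene, with UAG (written TAG in DNA) or a premature stop codon in capitals. They are read from the GRCm38 genome, and positions are in that build. The first is the most UAG-rich stretch of the 10 genes' footprints, the next are from coding exons covered in several mice, then an intronic stretch found in severe EAE, and the last is from the poison exon of *Tra2b*.
*Srsf4*, intron 1, chr4:131890728-131890757, plus strand: TAGTAGaatTAGtcatTAGaagagtTAGta
*Srsf1*, exon 3, chr11:88049176-88049205, plus strand: agttcgaaaactggataacactaagttTAG
*Srsf6*, exon 5, chr2:162934255-162934284, plus strand: TAGgagtcgcagaagcagccgcagTAGatc
*Srsf10*, exon 4, chr4:135863087-135863116, plus strand: tcacgatatgacgattatgaccgataTAGa
*Srsf11*, exon 11, chr3:158012825-158012854, minus strand: TAGgagtggtacaagatcccctaaaaagcc
*Srsf5*, intron 5, chr12:80948404-80948433, plus strand: aagagttgaaagatacgaaatTAGttggtc
*Tra2b*, poison exon with its stop codon TGA, chr16:22259167-22259196, minus strand: gctcaggaataagTGAagctgaaatttgaa

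Of the 10 mice, 9 had a footprint in at least 1 of the 10 genes, and *Srsf5*, *Srsf11* and *Srsf6* were listed in 9, 7 and 6 mice, the other genes in 1 to 5. Naive mice 1, 2 and 3 had 753, 448 and 1749 covered nt over the 10 genes, from 8, 5 and 16 footprints. Mild EAE mice 3, 4 and 7 had 1608, 1551 and 2666 nt, from 18, 15 and 27 footprints. Severe EAE mice 1, 2, 5 and 6 had 649, 127, 2439 and 0 nt, from 5, 1, 22 and 0 footprints. The mild and naive ranges overlapped, since naive 3 lay above 2 of the mild EAE mice. Group means were 983 ± 680 nt in naive (SD, n = 3), 1942 ± 628 nt in mild EAE (SD, n = 3) and 804 ± 1126 nt in severe EAE (SD, n = 4). The order of mild and severe EAE rested on the short lists, since without severe EAE mice 1, 2 and 6 the severe EAE value was the 2439 nt of mouse 5.

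Relative to the length of each list the order was clearer for mild EAE. Per 100000 covered nt of the same list, the 10 genes held 33.9, 21.8 and 80.0 nt in naive mice 1, 2 and 3. They held 104, 134 and 89.3 nt in mild EAE mice 3, 4 and 7. Every mild EAE mouse thus stood above every naive mouse on this scale. Severe EAE mice 1, 2, 5 and 6 held 197, 521, 58.9 and 0 nt, and the value of 521 nt rests on 1 footprint in a list of 209. The severe EAE mean of 194 ± 233 nt (SD, n = 4) was above the mild EAE mean of 109 ± 22.9 nt (SD, n = 3), with ranges that overlapped. Lists also differed in how much coding sequence they held over all genes, 29.8 to 40.5% of their nt in naive and 41.5 to 58.0% in mild EAE. Taken per 100000 coding nt of the list, a scale chosen after seeing the data, the coding nt of the 10 genes were 87.1, 22.8 and 147 in naive mice and 156, 227 and 112 in mild EAE mice, and the groups then overlapped. The part of the higher coding share in the result was not tested.

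**Figure D1:**
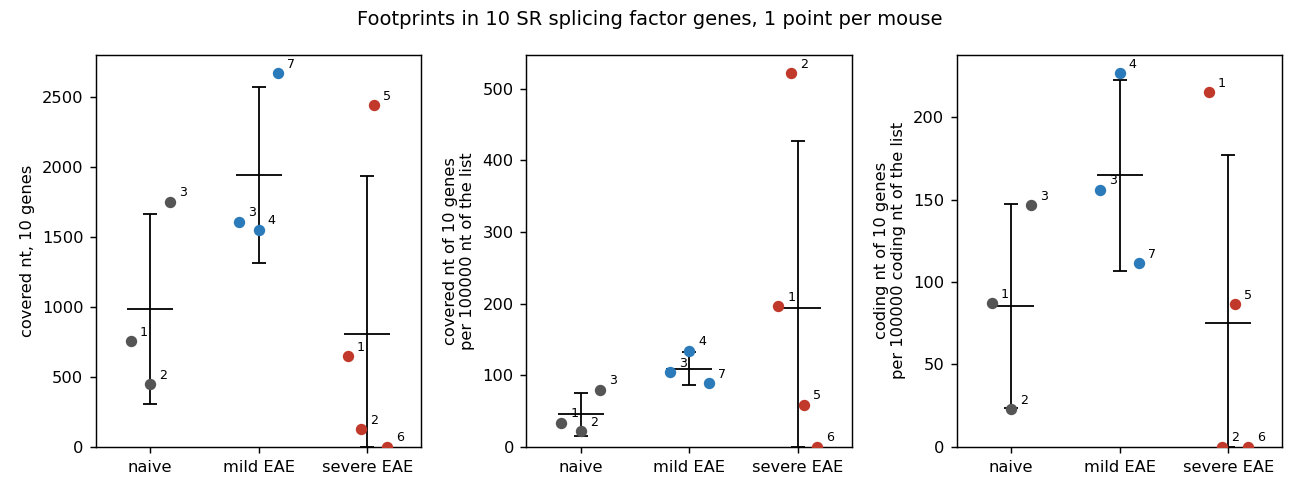
Footprints of the 10 SR splicing factor genes in each mouse, as covered nt (left), covered nt per 100000 nt of the same list (middle) and coding nt per 100000 coding nt of the list (right). Points are mice with their label number, bars are the mean and the arms 1 SD, cut at 0. Mild EAE mice all lie above naive mice only in the middle panel.

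For each gene, covered nt were compared between the 7 EAE and 3 naive mice by a two-sided exact permutation test over 120 assignments, adjusted over all 6731 genes by the Benjamini-Hochberg method. No gene passed an adjusted p of 0.05 in either direction (percent called 0), and none of the 9 SR genes did. Below an unadjusted p of 0.05 lay 1 gene that was higher in EAE (0.0149%) and 415 that were lower (6.17%), none of them an SR gene. The smallest p this design allows is 0.00833, and 1122 genes at that p would be needed for 1 adjusted call, where 125 had it. limma on log2(covered nt + 100) also called 0 genes, with 529 below an unadjusted p of 0.05. The difference of EAE minus naive was above 0 for 6 of the 9 SR genes, with a median of 66.0 nt, against 40.3% of all genes and a median of -26.3 nt. The 6 include *Srsf10* and *Tra2b*, which were listed in no naive mouse and so passed the filter through EAE mice alone. In whole spinal cord, fewer cells of a type and less of an RNA per cell cannot be told apart.

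**Figure D2:**
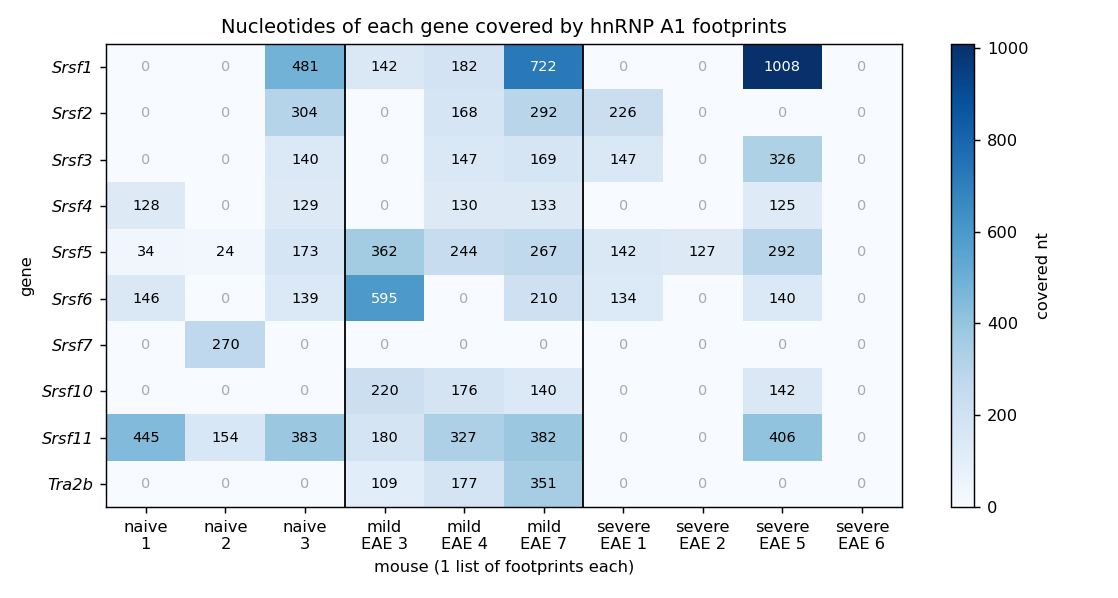
Covered nt of each of the 10 genes (rows) in each of the 10 mice (columns), with darker blue for more nt and vertical lines between groups. *Srsf10* and *Tra2b* have 0 in every naive mouse and values from 109 to 351 nt in every mild EAE mouse, and severe EAE mouse 6 has 0 throughout.

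In the comparison of mild EAE with naive mice, for which the smallest two-sided exact p of 3 against 3 mice is 0.1, genes were counted in which every mouse of one group lay above every mouse of the other. Every mild EAE mouse lay above every naive mouse in 3 of the 9 SR genes, *Srsf5*, *Srsf10* and *Tra2b*, beside 5.24% of all genes tested. The opposite order occurred in 0 SR genes, beside 5.26% of all genes. *Srsf1*, *Srsf5*, *Srsf10*, *Srsf11* and *Tra2b* were listed in all 3 mild EAE mice, 5 of 9 beside 32.0% of all genes. *Srsf10* and *Tra2b* were listed in no naive mouse, 2 of 9 beside 8.33% of all genes, and both features together held for these 2 beside 2.17% of all genes. *Tra2b* was listed in the 3 mild EAE mice only, so it entered the genes tested through that group alone. Its place in each of these counts followed from that filter and is no support for a difference. *Srsf10* was listed in the 3 mild EAE mice and severe EAE mouse 5, so it too passed the filter through EAE mice alone. The place of *Srsf10* in these counts is no support for a difference either. With any 1 of the mild EAE mice left out, *Tra2b* was covered in fewer than 3 mice and left the genes tested. Leukocyte markers were likewise listed in all mild EAE and no naive mice, and their part in these values was not tested.

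Near-identical copies of some SR genes limit this count. Of the 117 footprints, 36 matched a second place in the genome with at least 95% identity over at least 90% of their length, mostly an annotated processed pseudogene, that is, an intronless copy of the spliced RNA. For 29 of these 36 the list of the same mouse also held a footprint at such a copy, and the lists do not show which of the places gave the RNA. All 9 such footprints of *Srsf3*, all 7 of *Srsf10*, both of *Srsf7*, 9 of 15 of *Srsf5* and 2 of 3 of *Tra2b* had one, and for these the gene and its copy cannot be told apart in the lists. *Srsf1*, *Srsf2*, *Srsf4*, *Srsf6* and *Srsf11* had no such copy. With the 36 footprints left out, a choice made after seeing the data, the count of SR genes with every mild EAE mouse above every naive mouse went from 3 to 0. The 10 genes then held 719, 308 and 1436 nt in naive mice, 1106, 1003 and 2027 nt in mild EAE mice, and 649, 127, 1679 and 0 nt in severe EAE mice 1, 2, 5 and 6.

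In all 4 severe EAE mice together, 0 SR genes lay above or below all naive mice, beside 0.0149% of all genes above and 4.72% below. Severe EAE mouse 5 had a footprint in 7 of the 9 tested SR genes, beside 87.3% of all genes, and mouse 1 in 4, beside 19.5%. Mouse 2 had one in *Srsf5* alone, beside 1.87% of all genes, and mouse 6 in none, beside 6.86%. With mouse 5 as the sole severe EAE mouse, 4 of the 9 SR genes lay above all naive mice, *Srsf1*, *Srsf3*, *Srsf5* and *Srsf10*, beside 57.7% of all genes tested without the other 3 severe EAE mice.

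*Srsf4*, which encodes one of the larger SR proteins, had a single binding region in all mice that listed it. It spanned 141 nt within intron 1 (chr4:131890670-131890810), 396 nt before exon 2 in an intron of 17336 nt. Naive mice 1, 2 and 3 had 128, 0 and 129 nt there, mild EAE mice 3, 4 and 7 had 0, 130 and 133 nt, and severe EAE mouse 5 had 125 nt, with 0 in the other severe EAE mice. The groups overlapped fully, and EAE minus naive was -30.2 nt (exact permutation p = 0.792, adjusted p = 1). The footprints of all 5 mice shared 117 nt, no base of them was repeat-masked, and no copy was found elsewhere.

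This region was also the richest in UAG among the footprints of the 10 genes. Each of its 5 footprints held 13 UAG triplets on the strand of the gene, and the printed window holds 5 of the 13. Of 43832 footprints of 100 to 150 nt in protein-coding genes, 63.5% held at least 1 UAG, the median was 1 and 470 (1.07%) held 13 or more. Among SR footprints of that length, 37 of 43 (86.0%) held UAG, or 32 of 38 (84.2%) without *Srsf4*. The highest count outside *Srsf4* was 4. Footprints of 1 gene often cover the same place in several mice, so these 43 are not independent.

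**Figure D3:**
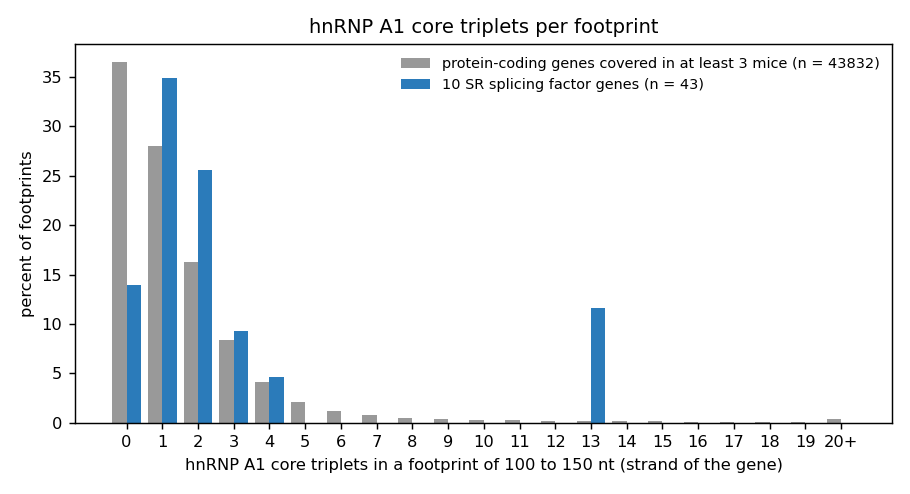
Share of footprints of 100 to 150 nt (vertical axis, percent) by the number of UAG triplets, the core of the hnRNP A1 motif, that they hold (horizontal axis). Grey bars are 43832 footprints of protein-coding genes covered in at least 3 mice and blue bars 43 footprints of the SR genes. The blue bar at 13 is the *Srsf4* region in 5 mice.

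UAG density inside and outside the footprints was also set side by side, with no test. Coding sequence of the 10 genes held 8.78 UAG per 1000 nt in all and 9.69 in its covered part. Outside coding sequence the density was 16.5 per 1000 nt in all and 20.3 where covered. Without *Srsf4* these were 16.9 and 16.5, so the higher covered value outside coding sequence rested on that region.

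*Tra2b* encodes transformer-2 beta, an SR-like protein that binds purine-rich exonic enhancers. Its covered length was 0 in every naive mouse, 109, 177 and 351 nt in mild EAE mice 3, 4 and 7, and 0 in every severe EAE mouse. Only the mild EAE mice were above 0. EAE minus naive was 91 nt (exact permutation p = 0.417, adjusted p = 1), since the severe EAE mice were at 0 as well. The mild EAE group mean was 212 ± 125 nt (SD, n = 3).

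The poison exon of *Tra2b* held all 177 nt of mild EAE mouse 4 and 140 of the 351 nt of mouse 7. It lies in intron 1 at chr16:22258865-22259261 on the minus strand, 397 nt in its longer annotated form, and 276 nt (chr16:22258986-22259261) in the shorter. Their footprints shared 17 nt (chr16:22259122-22259138). The footprint of mouse 7 began at the first base of the exon and held the printed stop codon, and that of mouse 4 ran past the end of the shorter form into the longer one. Mild EAE mouse 3 had no footprint in the poison exon, and its *Tra2b* value came from exons 7 and 8. Neither of the poison exon footprints had a copy elsewhere, whereas both *Tra2b* footprints of mouse 3 did.

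**Figure D4:**
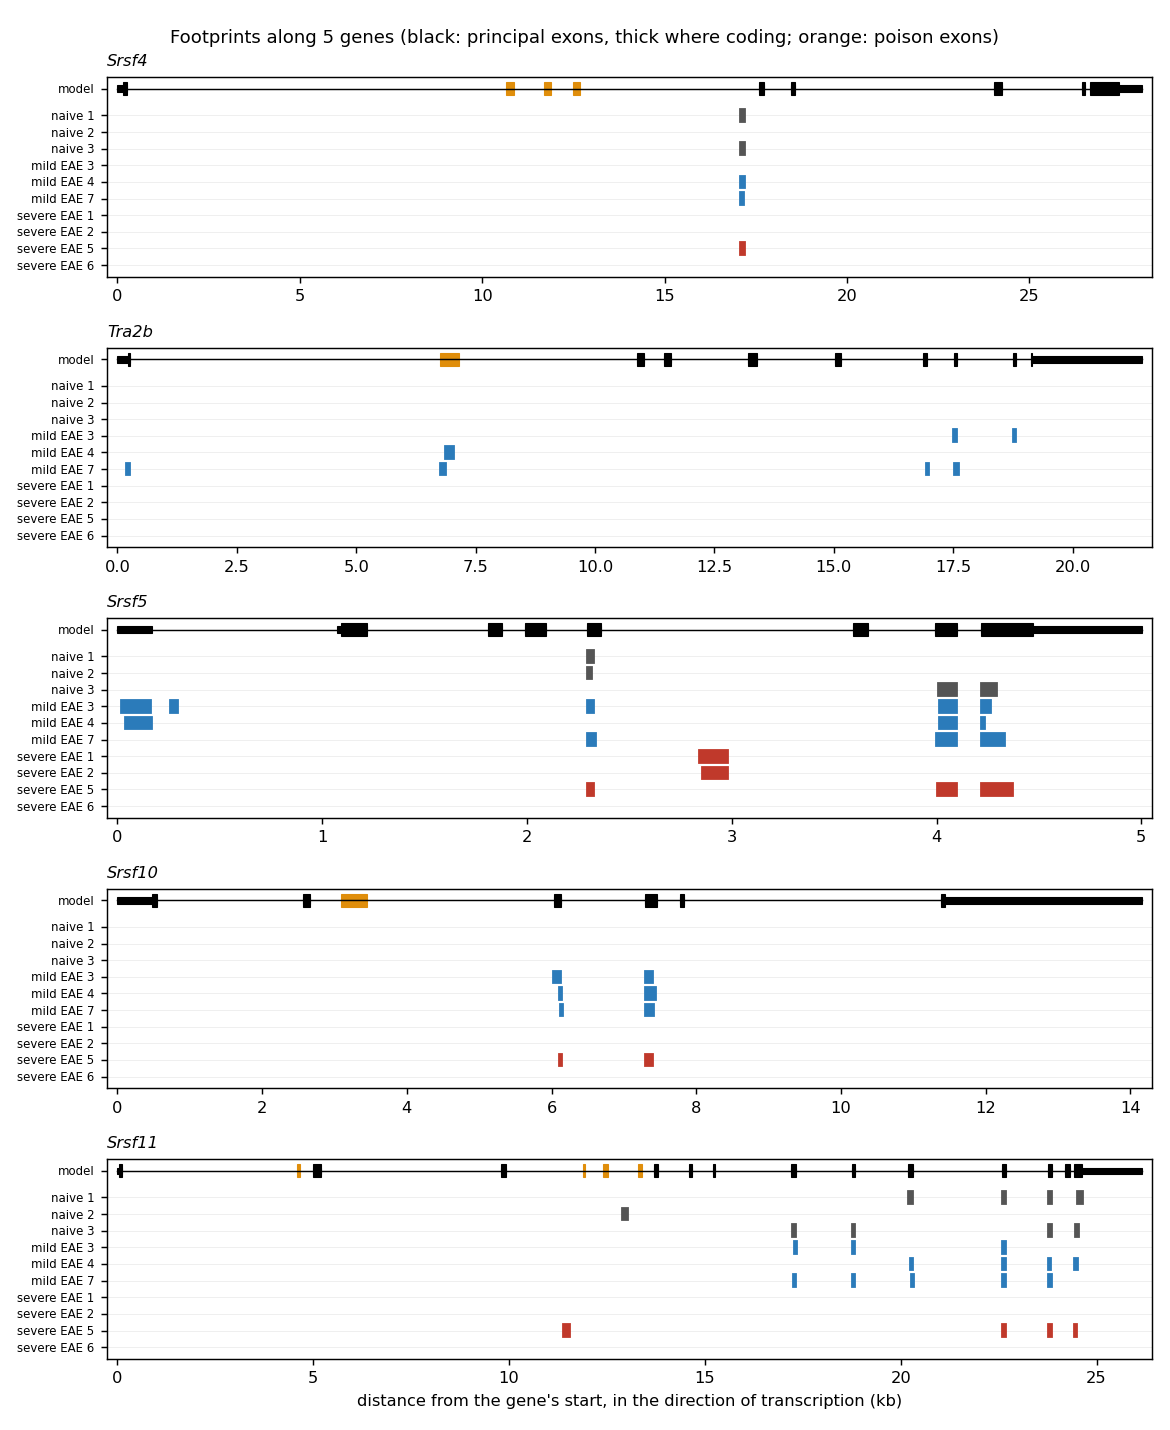
Footprints along *Srsf4*, *Tra2b*, *Srsf5*, *Srsf10* and *Srsf11*, by distance in kb from the start of each gene, with 1 line per mouse (grey naive, blue mild EAE, red severe EAE). Black boxes are exons of the principal transcript, taller where coding, and orange boxes are poison exons. The orange box of *Tra2b* is the only one with footprints, in mild EAE mice 4 and 7, and footprints under 0.3% of a gene's length are drawn at that width.

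The other poison exons found by the rule used here were without footprints. By their reading frame, 12 poison exon regions were found in 7 of the 10 genes, 2896 nt in all, with 3 in *Srsf4*, 4 in *Srsf11* and 1 each in *Srsf3*, *Srsf6*, *Srsf7*, *Srsf10* and *Tra2b*. Footprints overlapped 1 of the 12, that of *Tra2b*. The rule took only exons in introns between coding exons, so exons in introns of the 3′ UTR were not examined. Mild EAE mouse 7 had a footprint of 144 nt (chr11:116851385-116851528) in intron 2 of *Srsf2*, which follows the coding sequence. That stretch is exonic in an annotated transcript other than the principal one. The nearest footprint lay 96 nt from the poison exon of *Srsf3*, in severe EAE mouse 1, and 290 and 343 nt from those of *Srsf7* and *Srsf6*. That of *Srsf3* lay in intron 3 of the principal transcript, in a stretch that is exonic in another annotated transcript. For *Srsf11* the distances were 235 to 6725 nt, for *Srsf10* 2563 nt and for *Srsf4* 4365 to 6187 nt. The *Srsf11* intron that holds 3 of its 4 poison exons, intron 3, carried a footprint of 154 nt in naive mouse 2 (chr3:158023595-158023748) and one of 183 nt in severe EAE mouse 5 (chr3:158025083-158025265). Both stretches are exonic in annotated transcripts other than the principal one, and 83.1% of the bases in that of naive mouse 2 were repeat-masked.

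*Srsf10* encodes a splicing factor known to repress splicing when dephosphorylated. Its covered length was 0 in naive mice 1, 2 and 3, 220, 176 and 140 nt in mild EAE mice 3, 4 and 7, 142 nt in severe EAE mouse 5 and 0 in the other severe EAE mice. The mild EAE mean was 179 ± 40.1 nt (SD, n = 3), and EAE minus naive was 96.9 nt (exact permutation p = 0.2, adjusted p = 0.959). All 8 footprints fell in the same 2 coding exons, exon 3 (stretch shared by the mild EAE mice, chr4:135861845-135861877) and exon 4 (chr4:135863040-135863164). In each of the 4 mice the exon 3 footprint ended at the last base of that exon and the exon 4 footprint started at the first base of the next. The annotated processed pseudogene *Gm5446* held a copy of 7 of the 8 footprints, each with a footprint there in the same mouse, all but the 15 nt in exon 3 of mild EAE mouse 7. Those 15 nt lie inside the exon 3 footprints of the other 3 mice, which have the copy, and are shorter than the search could find.

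*Srsf5*, an SR gene that is induced early in several growth responses, was covered in more mice than any other of the 10. Naive mice 1, 2 and 3 had 34, 24 and 173 nt, mild EAE mice 3, 4 and 7 had 362, 244 and 267 nt, and severe EAE mice 1, 2, 5 and 6 had 142, 127, 292 and 0 nt. Every mild EAE mouse was above every naive mouse, with 291 ± 62.6 nt against 77 ± 83.3 nt (SD, n = 3 each). EAE minus naive was 128 nt (exact permutation p = 0.167, adjusted p = 0.944). Scaled per 1000000 mapped unique reads, mild EAE and naive overlapped for *Srsf5*. Every mild EAE mouse was then above every naive mouse in 2 of the 9 SR genes, *Srsf10* and *Tra2b*, beside 3.13% of all genes. *Tra2b* was among the genes tested through its mild EAE mice alone, and *Srsf10* through EAE mice alone. Their place in this count is no support for a difference. Coding exons 5, 7 and 8 of *Srsf5* recurred, each in 5 mice.

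In severe EAE mice 1 and 2 the *Srsf5* footprints lay in intron 5 (chr12:80948342-80948483), shared 127 nt, and met no footprint of the other mice. The stretch is exonic in an annotated transcript other than the principal one. It was 1 of 2 stretches shared by severe EAE mice in the 10 genes and had no copy elsewhere. In exon 1, the 5′ UTR, mild EAE mice 3 and 4 shared 130 nt (chr12:80945540-80945669) that no other mouse had. With footprints that had copies left out, *Srsf5* kept 189, 19 and 0 nt in mild EAE mice 3, 4 and 7, 142 and 127 nt in severe EAE mice 1 and 2, and 0 in all naive mice. The 19 nt of mild EAE mouse 4 lie inside footprints of other mice that have a copy, so they are not unique either.

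*Srsf11*, known for its part in the splicing of neuronal microexons, was one of 2 SR genes listed in all 3 naive mice, with *Srsf5* (beside 34.5% of all genes). Naive mice 1, 2 and 3 had 445, 154 and 383 nt, mild EAE mice 3, 4 and 7 had 180, 327 and 382 nt, and severe EAE mouse 5 had 406 nt, with 0 in severe EAE mice 1, 2 and 6. Naive, mild EAE and severe EAE mouse 5 overlapped. EAE minus naive was -142 nt (exact permutation p = 0.283, adjusted p = 1). Per 1000000 mapped unique reads, *Srsf11* lay below every naive mouse in all mild and in all severe EAE mice, the only SR gene of 9 to do so, beside 11.6% of all genes in mild EAE and 15.5% in severe EAE. Its coding footprints lay in exons 7 to 11 and 13, and those in exons 10 and 11 each occurred in 5 mice. Naive mouse 2 had none of these, and all its 154 nt lay in intron 3, in a stretch with 83.1% of bases repeat-masked. Its listing rests on that footprint, and its library had the fewest mapped unique reads of the 10 immunoprecipitations. Of the 406 nt of severe EAE mouse 5, 183 nt lay in intron 3 too. In exon 11 (chr3:158012780-158012875, 96 nt), the whole exon and no more was covered in naive 1, naive 3, mild EAE 7 and severe EAE 5.

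*Srsf1*, the founding SR protein and a factor that promotes exon inclusion, was listed in all 3 mild EAE mice. Naive mice 1, 2 and 3 had 0, 0 and 481 nt, mild EAE mice 3, 4 and 7 had 142, 182 and 722 nt, and severe EAE mice 1, 2, 5 and 6 had 0, 0, 1008 and 0 nt. Naive mouse 3 lay above 2 of the mild EAE mice, and the groups overlapped. EAE minus naive was 133 nt (exact permutation p = 0.658, adjusted p = 1). The region in exon 3 (chr11:88049019-88049240) was covered in all 5 mice that listed the gene and 127 nt of it in each of them. Severe EAE mouse 5 covered the gene over all 4 exons, with 3 of its regions in the 3′ UTR. Of the *Srsf1* footprints, 81 nt of mild EAE mouse 7 and 230 nt of severe EAE mouse 5 also lay in the antisense gene *Gm11508*, and lists without strand do not separate the pair.

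*Srsf6*, an SR protein that binds enhancers in many alternative exons, was listed in 2 mice of each group. Naive mice 1, 2 and 3 had 146, 0 and 139 nt, mild EAE mice 3, 4 and 7 had 595, 0 and 210 nt, and severe EAE mice 1, 2, 5 and 6 had 134, 0, 140 and 0 nt. The levels of the groups overlapped, with mild EAE mouse 3 highest. EAE minus naive was 59.1 nt (exact permutation p = 0.75, adjusted p = 1), and without mild EAE mouse 3 it was -14.3 nt. Coding exon 4 was covered in 5 mice of all 3 groups (chr2:162933652-162933862). The whole of exon 5 was covered in naive 3, mild EAE 3 and mild EAE 7.

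*Srsf3*, the smallest SR protein, had 0, 0 and 140 nt in naive mice, 0, 147 and 169 nt in mild EAE mice 3, 4 and 7, and 147, 0, 326 and 0 nt in severe EAE mice 1, 2, 5 and 6. The groups overlapped, and EAE minus naive was 66.0 nt (exact permutation p = 0.417, adjusted p = 1). Of its 10 footprints 9 have a copy in the genome that was listed in the same mouse. The exception was the 147 nt of severe EAE mouse 1 in intron 3 (chr17:29040006-29040152), the site nearest to the poison exon. That stretch is exonic in an annotated transcript other than the principal one.

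*Srsf2*, a factor of nuclear speckles, had 0, 0 and 304 nt in naive mice, 0, 168 and 292 nt in mild EAE mice 3, 4 and 7, and 226, 0, 0 and 0 nt in severe EAE mice 1, 2, 5 and 6. Its difference of -3.33 nt (exact permutation p = 0.875, adjusted p = 1) changed sign under several alternatives. Naive mouse 3 and mild EAE mouse 4 shared 168 nt of coding exon 2, within chr11:116851998-116852301. All its footprints also lay within *Mettl23* on the opposite strand, and the 226 nt of severe EAE mouse 1, in exon 1, within *Mfsd11* too. *Srsf7*, which also takes part in mRNA export, was listed only in naive mouse 2, with 270 nt, and was not tested. Of that, 154 nt lay in intron 1 (chr17:80207020-80207173), with no copy elsewhere.

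Across the 10 genes, covered nucleotides lay in coding sequence far more than its share of the genes' length. Coding sequence makes up 6.94% of the spans and introns 55.4%, yet 66.6% of the covered nt were coding and 7.21% intronic. In naive, mild EAE and severe EAE the coding share was 69.5, 70.1 and 57.6%. Over the 5481 protein-coding genes tested, the coding share was 40.5, 57.8 and 50.1%. The SR genes had intronic shares of 14.8, 5.13 and 4.04% in these groups, beside 50.1, 31.7 and 35.0% over all coding genes. How much of the spans of those genes is intron or coding sequence was not computed. Gene structure and footprint position therefore cannot be told apart in the comparison with all coding genes. Per mouse the intronic share of the SR genes was 17.0, 34.4 and 8.81% in naive and 0.684, 9.86 and 5.06% in mild EAE, so that 1 mild EAE mouse lay within the naive range. In any mouse, 39.5% of the coding nt of the 10 genes were covered, 23.3% of the 5′ UTR, 3.79% of the 3′ UTR, 10.4% of poison exon nt and 0.473% of introns.

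**Figure D5:**
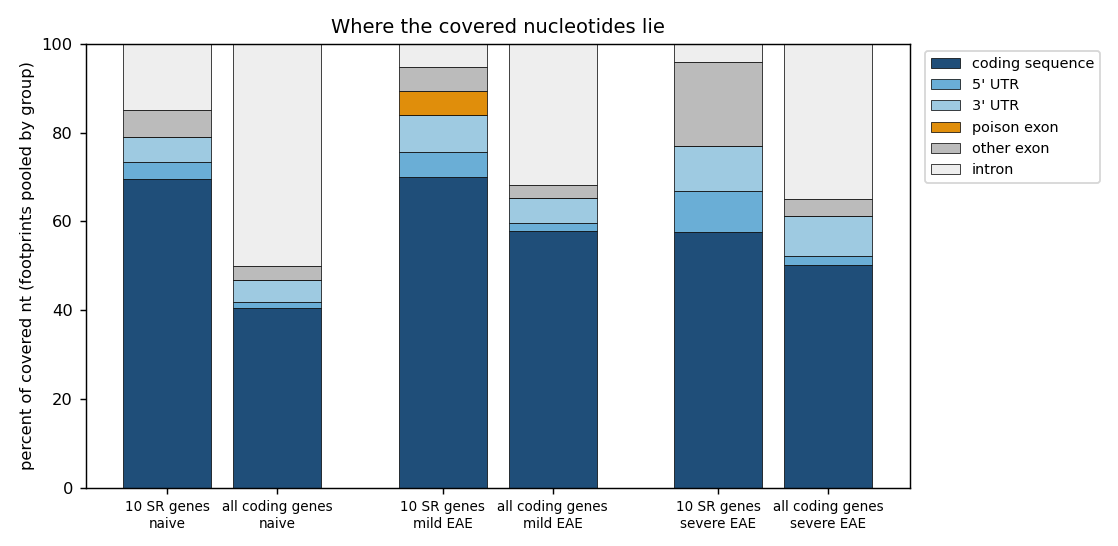
Share of covered nt by region class (vertical axis, percent of nt pooled over the mice of a group) for the 10 SR genes and for all 5481 protein-coding genes tested, in naive, mild EAE and severe EAE. Coding sequence is the largest class of the SR genes in every group, at 57.6 to 70.1%, and poison exons, which were defined for the SR genes alone, hold nt in mild EAE only.

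Most footprints ended at exon ends. Of the 117, 78 (66.7%) started or stopped within 2 nt of an exon end, beside 52.5% over the coding genes tested. Naive mice had 20 of 29 such footprints (69.0%, beside 43.0%), mild EAE mice 42 of 60 (70.0%, beside 61.3%), severe EAE mice 16 of 28 (57.1%, beside 53.7%). Another 9 (7.69%) crossed an end of an exon of the principal transcript by at least 5 nt, beside 2.84% over the coding genes tested. Of these 9, 3 had at least 5 nt in introns, and 5 had none, since the part beyond the exon end was exonic in another annotated transcript. An end at an exon end can come from a spliced contig or from a part removed with the input, and the lists do not tell them apart.

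Shared stretches were most numerous in mild EAE. Stretches covered in at least 2 mice of a group numbered 4 in naive (3 genes, 279 nt), 18 in mild EAE (8 genes, 1390 nt) and 2 in severe EAE (2 genes, 201 nt). Of the 18 in mild EAE, 15 were mainly coding and 15 were also covered in a mouse of another group. Merged over all lists, the 10 genes held 49 regions, of which 19 were covered in both naive and EAE mice, 5 in naive mice alone and 25 in EAE mice alone. This split sets 3 naive lists against 7 EAE lists, and it was not made over all genes. In 18 regions a single mouse was covered, and in 18 at least 3 were. No test was run on these counts, which grow with the length of a list. Shared stretches were not counted over all genes, so it is not known whether the higher count in mild EAE is particular to the SR genes. Those of mild EAE include coding exons of *Srsf3*, *Srsf5*, *Srsf10* and *Tra2b* with footprints that had copies elsewhere.

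Around these genes, the 19 others of the pathway were read as a list, with the kinases that phosphorylate SR proteins (*Srpk1* to *Srpk3*, *Clk1* to *Clk4*), SR-related speckle proteins and the remaining SR genes. Of them 16 were tested, 0 passed the adjusted threshold, and 2 had an unadjusted p under 0.05. Both were lower in EAE, as were 6.17% of all genes at that threshold. *Srrm3*, which promotes neuronal microexons, had 535, 495 and 395 nt in naive mice, 128, 225 and 0 nt in mild EAE mice 3, 4 and 7, and 0, 0, 102 and 0 nt in severe EAE mice 1, 2, 5 and 6. Every EAE mouse was below every naive mouse, with a difference of -410 nt (exact permutation p = 0.00833, the smallest possible, adjusted p = 0.449). *Srpk3*, a kinase best known from muscle, differed by -168 nt (exact permutation p = 0.025, adjusted p = 0.541).

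Among the others covered in at least 6 mice, *Tra2a*, the paralog of *Tra2b*, had 138, 112 and 137 nt in naive mice and 155, 159 and 577 nt in mild EAE mice, all above naive. *Srrm1*, a splicing coactivator, had 273, 179 and 254 nt in naive and 799, 344 and 623 nt in mild EAE, again without overlap. Both were at 0 in severe EAE mice 2 and 6 and had 770 and 1225 nt in severe EAE mouse 5. *Tra2a* and *Srrm1* were the 2 of 16 genes tested with every mild EAE mouse above every naive mouse, beside 5.24% of all genes. The opposite order held for 1 of the 16, *Srrm3*, beside 5.26% of all genes. *Srpk1*, *Srpk2*, *Clk2*, *Srrm2*, *Son*, *Pnn* and *Acin1* overlapped between naive and mild EAE, with EAE minus naive from -422 nt for *Pnn* to 272 nt for *Acin1* and adjusted p of 0.831 or more by the exact permutation test. *Srsf12* was listed in no mouse.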

How the data were processed

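Spinal cord hnRNP A1 immunoprecipitations of 10 mice were used, 1 list per mouse. Matched inputs and pooled control antibody samples were not analysed here. The authors trimmed reads (bcl2fastq 2.19.0.316, fastp), built contigs (rnaSPAdes), placed them on GRCm38 by spliced alignment (minimap2 2.17), removed sites present in input or control antibody data and merged the rest with bedtools. The deposited files hold start and end positions only, with no count, score or strand. Labels and methods name different antibody clones.

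Covered nt per gene were summed over GENCODE M21 spans. Genes covered in at least 3 mice were tested as stated beside the results, and the code was tested on simulated data. Coding sequence and UTRs are those of the principal transcript. A poison exon is an internal annotated exon inside an intron between coding exons whose insertion gives an in-frame stop more than 50 nt before the last junction. Copies were sought with BLAST+ 2.17.0. All 10 SR genes are named, other pathway genes by values if covered in at least 6 mice, and genes overlapping a member where both share a footprint. *Srrm3* and *Srpk3* are named as the 2 with an unadjusted p under 0.05. Members, lists and tests were chosen with earlier results of these data known. Replicates are mice. The exact permutation p is the share of assignments of mice to groups with a difference of means at least as large as that found. Python 3.11.15, numpy 2.4.6, scipy 1.17.1, pysam 0.24.0, matplotlib 3.10.9 and limma 3.58.1 were used.

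The results were recomputed with footprints under 30 nt or over 1000 nt dropped, with scaling per 100000 nt of the list or per 1000000 mapped unique reads of the study's quality table, nt in no other gene, limma, all genes covered in at least 1 mouse, a replicate block, stretches of at least 20 nt or in at least 3 mice, another poison exon rule, a tolerance of 0 nt, each mouse left out, and severe EAE mice 1, 2 and 6 left out together. Leaving out footprints with copies and scaling by coding nt were added after seeing the data.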

Additional observations from a re-analysis of the deposited data

Results flagged for a closer look

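In severe EAE, 5 of the 10 values examined over 4 mice had 1 mouse far from the other 3, which were all at 0. Severe EAE mouse 5 stood alone with 1008 nt of *Srsf1*, 125 nt of *Srsf4*, 142 nt of *Srsf10* and 406 nt of *Srsf11*. Severe EAE mouse 1 stood alone with 226 nt of *Srsf2*. For values with a continuous spread chance gives such a gap in about 1 of 20 groups, but with 3 mice at 0 any gene listed in a single severe EAE mouse gives it, so that rate does not apply here. Mouse 5 has the longest list of the 10, and the lists of mice 1, 2 and 6 are the shortest.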

How the results depend on the processing

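No alternative gave an adjusted call for any gene. The sign of EAE minus naive was the same under all 19 alternatives for *Srsf3*, *Srsf5* and *Srsf11*. It was also the same for *Srsf10* and *Tra2b*. With 0 nt in every naive mouse, these genes could not give a negative difference, so their constant sign is no sign of robustness. The sign reversed for *Srsf1* under the replicate block (-113 nt) and for *Srsf6* without mild EAE mouse 3 (-14.3 nt, range -14.3 to 84.8 nt with 1 mouse left out). Without severe EAE mice 1, 2 and 6 together it reversed for *Srsf4* (11.3 nt) and *Srsf2* (13.7 nt). *Srsf2* also reversed per 100000 nt of the list (8.62), under limma (0.057 on the log2 scale), and without 1 mouse (range -54 to 98 nt, with 13 nt without mild EAE 3 or severe EAE 2, 5 or 6).

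The replicate block paired the mice numbered 1 to 3, which share only a number, with correlations of their deviations of -0.07, 0.17 and 0.03. It gave 0 calls, and sign flips over 3 pairs cannot reach the threshold.

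The mild EAE mean over the naive mean of the 10 genes' nt, 1.97, was 1.33 per 1000000 mapped unique reads and 1.55 to 3.23 with 1 mouse left out, highest without naive 3. The severe EAE ratio, 0.817, was 4.29 per 100000 nt of the list, 0.413 per 1000000 mapped unique reads, 2.48 without mice 1, 2 and 6, and 0.263 to 1.34 with 1 mouse left out. Genes with all mild EAE mice above naive numbered 2 to 4 with 1 mouse left out and 0 without footprints that had copies. The genes changed, to *Srsf3*, *Srsf4*, *Srsf5* and *Srsf10* without mild EAE 3 and to *Srsf5*, *Srsf6* and *Srsf10* without mild EAE 4. The share of all genes was not computed at these settings, so the counts cannot be read as a result about the SR genes. *Srsf11* lay below naive in mild and in severe EAE (1 gene each, from 0) per 1000000 mapped reads, beside 11.6 and 15.5% of all genes. With 1 mouse left out these counts were 0 to 1 in both comparisons, 1 without naive 2 (*Srsf11* in mild EAE, *Srsf4* in severe EAE) or severe EAE 5. The share of all genes with 1 mouse left out was not computed here either. Above naive, severe EAE had 4 of 9 without mice 1, 2 and 6, beside 57.7% of all genes.

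Shared stretches fell to 0, 6 and 0 in naive, mild and severe EAE when 3 mice had to share them. With 1 mouse left out they were 0 to 3, 7 to 12 and 0 to 2, and without severe EAE mice 1, 2 and 6 the severe count is 0 by construction, with 1 mouse left. The intronic share in severe EAE was 0 to 5.07% with 1 mouse left out, 0 without mouse 5.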
